A study of Saccharomyces cerevisiae with 12 samples.

Results

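The TOR2 mutant was compared after 6 h at 37 °C and at 0 h, across the 9275 yeast probe sets among 9335 on the array. The comparison used 4 of the 12 arrays of the series, chosen by their titles: strain SH121 (MU) at 6 h, cultures A and B, and the same strain at 0 h, cultures A and B. SH121 carries a temperature-sensitive TOR2 allele that is, per the methods, defective only in the function that TOR2 does not share with TOR1. Its isogenic wild type SH100 (WT) was sampled at the same times. Both strains grew in rich glucose medium (YPD), at 25 °C (0 h) or shifted to 37 °C for 2 h or 6 h, as independent duplicate cultures harvested at a similar density. Total RNA was hybridised to Affymetrix yeast arrays. The 6 h cultures differed from the 0 h cultures in temperature, in time and in the state of the allele at once, and these cannot be told apart within MU. MU is 1 strain with 1 allele, and each array reads the RNA of a whole culture, so a change in every cell cannot be told apart from a change in the share of cells.

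TOR kinases join nutrient and stress signals to growth. Tor1 and Tor2 can each form TORC1, which drives ribosome production and translation, whereas only Tor2 enters TORC2, which acts on actin polarity, sphingolipids and the cell surface through the Ypk kinases. A shift of yeast to higher temperature is known for a chaperone response led by Hsf1, for the general stress response led by the paralogous factors Msn2 and Msn4, and for a fall in transcripts of ribosome assembly.

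The 12 arrays had closely similar median signals, between 72.0 and 75.9, and shared the same highest signal of 12860.1. Between 4.32% and 6.36% of yeast probe sets stood at the lowest value of the table, 1, which marks no measurable signal. Duplicate arrays correlated at r between 0.970 and 0.978 over log2 signals, and the 3′ to 5′ signal ratio of ACT1 lay between 1.42 and 1.56 on the 4 arrays compared. A signal is not comparable between probe sets, so each value below is set only against the same probe set.

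In MU after 6 h, 1003 probe sets (10.8% of those tested) were higher than at 0 h and 1054 (11.4%) were lower, at an adjusted p under 0.05 by limma. For each of these probe sets both 6 h arrays lay beyond both 0 h arrays, as they did for 2479 probe sets upward and 3123 downward among all 9275. Rises were larger than falls: 542 rises reached 1 on the log2 scale and 72 reached 3, against 287 and 7 falls. The median log2 change was 1.09 among the rises and -0.78 among the falls, and -0.06 over all probe sets. Calls became more frequent with signal, from 172 in the dimmest 25% of probe sets to 762 in the brightest 25%, while the median standard error of the log2 change fell from 0.61 to 0.13. The counts depended on which arrays were used. With the 4 arrays alone, which leave 2 residual degrees of freedom, 325 were higher and 252 lower. Without MU 0 h array A the counts were 590 and 414, without MU 0 h array B 609 and 400, and without MU 6 h array B 592 and 525, whereas they were 880 and 944 without MU 6 h array A.

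**Figure D1:**
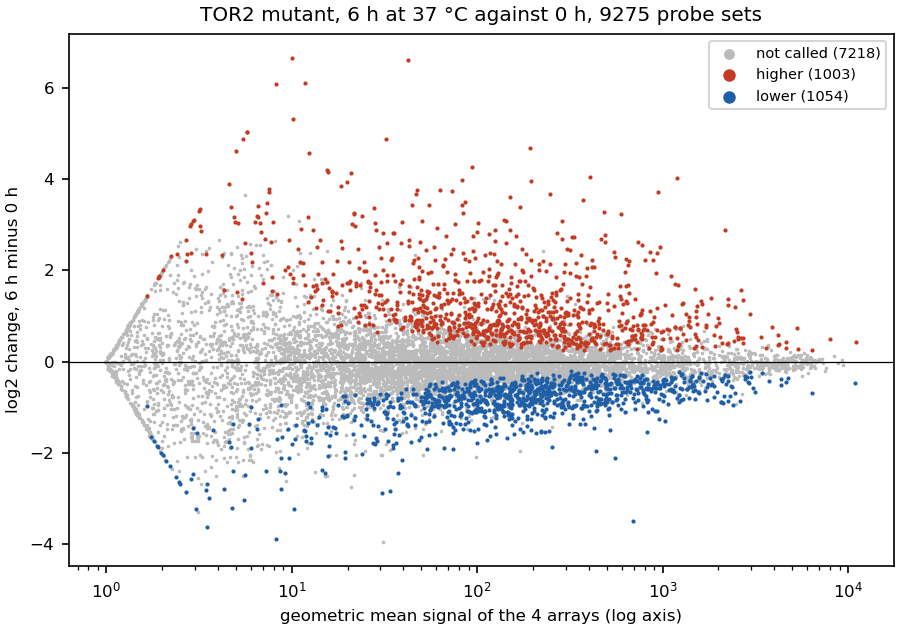
Log2 change from 0 h to 6 h in the TOR2 mutant (y axis) against the geometric mean signal of the 4 arrays (log x axis), 1 point for each of 9275 probe sets. The 1003 higher (red) and 1054 lower (blue) probe sets spread over the whole signal range, and the fan of grey points at low signal shows the wide scatter of dim probe sets.

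TOR2 itself had signals of 178.4 and 190.6 at 0 h and of 306.6 and 267.0 at 6 h. Both 6 h arrays were above both 0 h arrays on the single TOR2 probe set, by 0.63 ± 0.18 (SE) on the log2 scale (adjusted p = 0.043). A probe set reads the amount of transcript, not the mutation or the activity of the kinase. That call is close to the threshold and was lost without any single one of the 4 arrays. In WT the signals were 260.3 and 235.9 at 0 h and 268.9 and 351.1 at 6 h, and the difference between the strains' changes was 0.34 (adjusted p = 0.951). Of 23 genes for TOR complexes and their effector kinases, TOR2 was the only member called, and the count was 0 without either MU 0 h array, 1 without MU 6 h array A and 3 without MU 6 h array B. TOR1 stood at 111.3 and 111.5 at 0 h and at 147.9 and 134.1 at 6 h (adjusted p = 0.060). YPK2, a TORC2 effector kinase, stood at 35.5 and 35.6 and then at 60.6 and 62.6 (adjusted p = 0.056).

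The largest rises included stress and carbohydrate genes. By the rule for naming genes, which asked for signals above 1 on all 4 arrays and for a 6 h mean above the array median, the 12 largest were YJR079W, YHR140W, HXT5, BNA2, JEN1, FMP33, CPP3, HSP12, GPG1, SOL4, YPR145C-A and RTA1, with log2 changes from 3.77 to 6.62. HSP12, a small heat shock protein bound to membranes, went from 294.8 and 296.9 at 0 h to 4896.5 and 4826.2 at 6 h. Its duplicates almost coincided at each time, and its log2 change of 4.03 ± 0.11 had an adjusted p of 3.2e-06. SOL4, an enzyme of the pentose phosphate pathway, went from 37.3 and 65.2 to 874.8 and 686.4. BNA2, which starts NAD synthesis from tryptophan, went from 20.8 and 21.8 to 301.8 and 567.5. YJR079W, an uncharacterised gene, had the largest of these changes, from 13.7 and 1.3 to 409.2 and 438.1, with 1 of its 0 h arrays near the lowest value. JEN1 (a lactate and pyruvate permease), YPR145C-A and RTA1 were not called without either MU 0 h array or without MU 6 h array B.

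**Figure D2:**
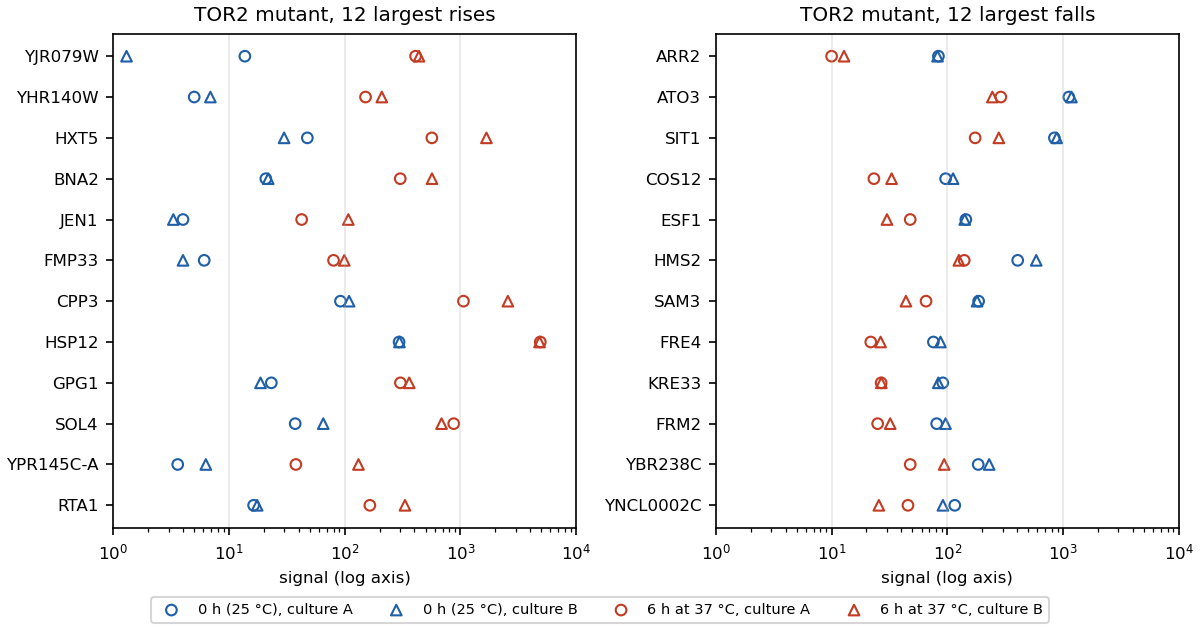
Signals (log x axis) on each of the 4 arrays in the TOR2 mutant for the 12 largest rises (left) and falls (right) under the naming rule. Circles are culture A, triangles culture B, blue 0 h and red 6 h. HSP12 moved from near 296 to near 4861 with duplicates on top of each other, while the 6 h duplicates of HXT5, JEN1 and CPP3 stand apart.

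By the same rule, here with the 0 h mean above the array median, the 12 largest falls were smaller. They ran from -1.60 to -2.89 on the log2 scale. Among all called falls, which include probe sets that the rule left out, 39 were of at least 2 and 7 of at least 3. The largest under the rule was that of ARR2 (-2.89 ± 0.21), an arsenate reductase. ATO3, a putative ammonium exporter of the plasma membrane, fell from 1122.1 and 1182.0 to 290.1 and 245.2, a log2 change of -2.11 ± 0.09 (adjusted p = 2.1e-05), and its duplicates lay close together at both times. Genes of metal uptake and ribosome assembly were also among them. SIT1, a siderophore iron transporter, had 842.2 and 882.5 at 0 h and 174.0 and 278.8 at 6 h. KRE33, an rRNA acetyltransferase of the small subunit pathway, fell from 91.4 and 83.6 to 26.8 and 26.9. The others were COS12, ESF1, HMS2, SAM3, FRE4, FRM2, YBR238C and YNCL0002C, the last a tRNA gene on a probe set that its suffix marks as shared by similar sequences. ESF1, a nucleolar rRNA processing factor, was not called without either 0 h array or without 6 h array B, YNCL0002C not without 0 h array A or 6 h array B, and YBR238C not without 0 h array B.

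Some genes had no measurable signal at 0 h. JLP1, which releases sulfur from sulfonates, was at 1.0 on both 0 h arrays and at 49.9 and 206.9 at 6 h. BAG7, a GTPase-activating protein for Rho1, stood at 1.0 and 1.0 and then at 38.6 and 120.8. Both had 6 h duplicates far apart, with array B the higher. YMR085W stood at 1.0 and 1.0 and then at 22.2 and 48.7. FMP48, a putative protein kinase, went from the same value to 34.1 and 31.8. No fold is given for these because the 0 h level is only bounded. In the other direction VAM10 was the only single-gene probe set of its kind, with 3.0 and 6.4 at 0 h and 1.0 and 1.0 at 6 h. JLP1 and BAG7 were not called without either 0 h array or without 6 h array B, and the call of VAM10 was lost with any one of the 4 arrays left out.

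Genes were then grouped in 45 lists, with 1 probe set for each gene. Over all 5656 genes with a single symbol, 801 (14.2%) were higher and 776 (13.7%) lower, with a median log2 change of -0.04, and each list is read beside these shares. The list counts depended on the arrays used. Of 24 list counts of at least 5, 17 moved by more than 1.5 times with the 4 arrays alone. The lists with the highest medians held stress and storage genes, and the lowest held ribosome assembly.

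**Figure D3:**
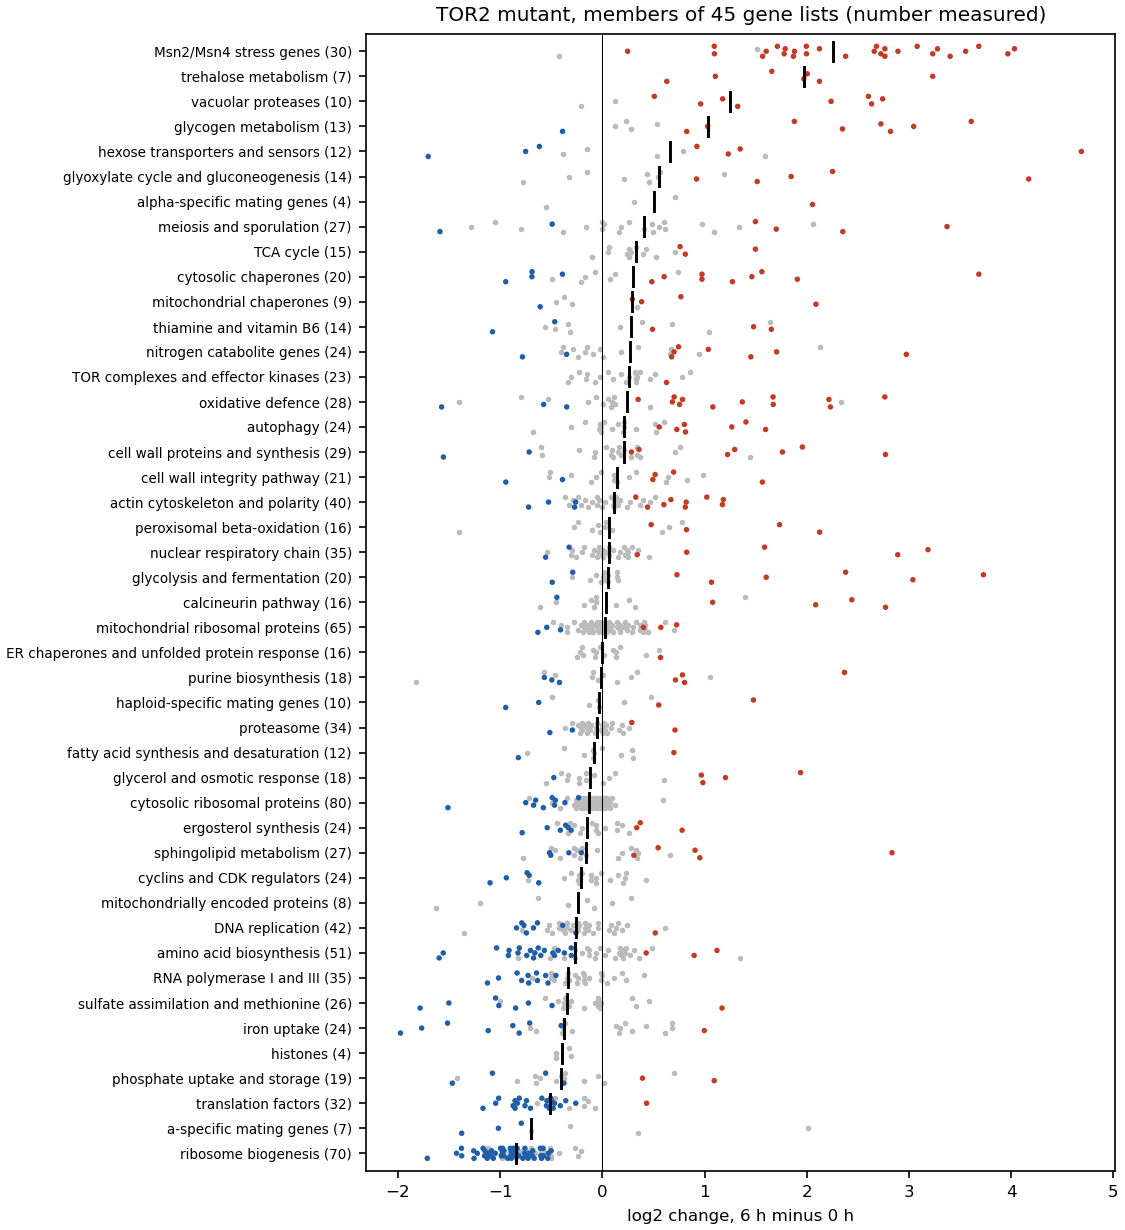
Log2 change from 0 h to 6 h (x axis) of every measured member of 45 gene lists in the TOR2 mutant, ordered by the list's median (black bar). Red and blue points passed the threshold upward or downward and grey points did not. Msn2/Msn4 stress genes stand at the top with a median of 2.25 and ribosome biogenesis at the bottom with -0.85.

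Of 30 genes known as targets of Msn2 and Msn4, 28 were higher and none was lower, with a median log2 change of 2.25. SPI1, a cell wall protein made in stationary phase, went from 96.2 and 121.7 to 1244.7 and 1302.5. DDR2, a multistress gene, went from 761.7 and 828.3 to 5918.7 and 5934.2. CTT1, the cytosolic catalase, went from 24.7 and 27.2 to 253.4 and 124.5, with its 6 h duplicates apart and array A the higher. HOR7 changed least among those called, by 0.25 ± 0.06. GRE1 was not called, at 49.9 and 75.3 and then at 47.1 and 45.3 (adjusted p = 0.192). SIP18, which was dim, was at 3.4 and 8.1 and then at 16.7 and 14.4 (adjusted p = 0.177). The count was 26 to 28 with any one of the 4 arrays left out and 20 with the 4 arrays alone.

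Trehalose is the disaccharide that yeast stores under heat, and all 7 genes for its synthesis and breakdown were higher, with a median log2 change of 1.97. TSL1, a regulatory subunit of the synthase, rose from 186.6 and 201.4 to 2055.1 and 1623.7. TPS2, the phosphatase of the pathway, rose from 311.0 and 313.3 to 1547.3 and 1195.9. Trehalases rose as well: NTH1, the neutral trehalase, had 103.8 and 110.7 at 0 h and 418.9 and 445.5 at 6 h. TPS3 changed least, by 0.63. Of 13 glycogen genes 8 were higher and 1 lower (median 1.03). GPH1, which degrades glycogen, rose from 41.1 and 44.4 to 624.4 and 440.0. GSY2, the main synthase, rose from 106.3 and 96.1 to 840.6 and 609.4. Enzymes of synthesis and of breakdown thus rose side by side in both stores. GAC1, a targeting subunit for the phosphatase that activates glycogen synthase, had 8.3 and 11.4 at 0 h and 105.4 and 63.2 at 6 h. PGM1, the minor phosphoglucomutase, was the lower member (-0.39) while PGM2, the major one, rose by 2.73. The 7 and 8 rises did not change with any one of the 4 arrays left out, while the call of PGM1 remained only without MU 6 h array B.

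Chaperones split. Among 20 cytosolic chaperone genes measured, 9 were higher and 4 lower, with a median of 0.30. On probe sets that their suffix marks as specific, 7 of 18 were higher and 5 lower. HSP26, a small heat shock protein that holds unfolded proteins, rose from 81.0 and 58.9 to 839.3 and 943.4 (log2 change 3.68 ± 0.19, adjusted p = 4.2e-05). SSE2, a nucleotide exchange factor for Hsp70, rose from 66.8 and 64.1 to 263.2 and 231.9. The disaggregase HSP104 rose from 164.0 and 159.2 to 542.9 and 420.8. The Hsp70 genes differed. SSA1 had 6847.1 and 6589.6 at 0 h and 9921.9 and 8904.7 at 6 h. SSA2 moved the other way, from 7405.0 and 8807.9 to 5729.8 and 4394.2. YDJ1, an Hsp40 partner of these, fell from 2988.8 and 3236.3 to 2022.3 and 1844.4. FES1 and SIS1, also Hsp70 partners, were the other lower members. HSF1, the heat shock factor, was at 149.0 and 152.5 and then at 133.5 and 156.5 (adjusted p = 0.855). The 4 falls were 2 without either 0 h array or without 6 h array B, and 1 with the 4 arrays alone. In mitochondria, 4 of 9 chaperone genes were higher and 1 lower. HSP78, the mitochondrial disaggregase, rose from 42.4 and 23.6 to 152.7 and 119.8. HSP10, the chaperonin lid, changed by 0.77 and MGE1, an Hsp70 exchange factor, by -0.61, neither being called without either 0 h array. The 4 rises were 2 without MU 0 h array A, 1 without MU 0 h array B and 2 without MU 6 h array A. In the endoplasmic reticulum list 1 of 16 genes was called, HRD3 of the degradation pathway, which rose by 0.56 and was not called without MU 0 h array B. KAR2, the Hsp70 of that compartment, was at 3441.4 and 3331.4 and then at 3496.6 and 2876.6 (adjusted p = 0.570).

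Of 28 genes of oxidative defence, 12 were higher and 3 lower (median 0.24), with 11 to 12 rises when any one of the 4 arrays was left out. Besides CTT1, GRX1, a glutaredoxin, rose from 413.3 and 402.4 to 1725.4 and 2105.1. The peroxiredoxin TSA2 rose from 42.2 and 41.3 to 159.7 and 238.7. GPX2, a glutathione peroxidase, was the lower member with the largest change (-1.57), and TRR1 and GRX3 changed by -0.57 and -0.35. These 3 falls were 1 without MU 0 h array A. In the vacuole, where proteins are degraded, 8 of 10 protease and inhibitor genes were higher and none lower, with a median of 1.25. APE1, an aminopeptidase, rose from 146.7 and 108.0 to 678.9 and 1053.0. PBI2, an inhibitor of the vacuolar protease PRB1, rose from 273.4 and 319.5 to 1700.0 and 1988.6. PAI3, an inhibitor of protease PEP4, rose from 11.8 and 14.8 to 78.2 and 84.5. The proteases PRB1, with a log2 change of 2.24, and PEP4, with 0.51, were called as well, so enzymes and their inhibitors moved the same way. Of 24 autophagy genes 7 were higher and none lower (median 0.22). ATG8, the ubiquitin-like protein of the autophagosome, had 170.3 and 152.9 at 0 h and 390.1 and 617.2 at 6 h. ATG33 and ATG19, which act in mitophagy and in selective delivery to the vacuole, rose by 1.41 and 1.27. The 7 became 3 without MU 0 h array A or without MU 6 h array B, and 2 with the 4 arrays alone. Among 34 proteasome genes 2 were higher and 2 lower (median -0.06), with changes of 0.71 for PRE3, a core subunit, -0.51 for RPT2 and -0.29 for RPN8, both of the regulatory particle. RPT2 was not called without either 0 h array or 6 h array B, and RPN8 not without 0 h array B or either 6 h array.

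Some isoenzymes of sugar metabolism moved apart. Among 20 glycolysis and fermentation genes 6 were higher, 2 lower and 12 not called, with a median of 0.06. TDH1, a glyceraldehyde-3-phosphate dehydrogenase of stressed and slow-growing cells, rose from 242.7 and 277.2 to 3190.2 and 3691.4, a log2 change of 3.73 ± 0.11 (adjusted p = 3.2e-06). TDH3, the main isoenzyme, was at 7088.0 and 7140.8 and then at 7406.5 and 7406.0 (adjusted p = 0.771). Hexokinases split likewise: HXK1 rose from 390.8 and 427.6 to 2359.8 and 1927.3. HXK2, the isoenzyme of growth on glucose, fell from 2537.5 and 2705.5 to 1674.0 and 2062.9. PDC6, a minor pyruvate decarboxylase, was dim throughout, at 1.8 and 2.9 and then at 13.6 and 28.6. The 6 rises were 5 with any one of the 4 arrays left out, and the 2 falls, which include HXK2, were 0 or 1.

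Of 12 hexose transporter and sensor genes 4 were higher and 3 lower (median 0.67). HXT5, a transporter of slow growth, rose from 47.5 and 29.9 to 565.9 and 1676.2, so that the 6 h arrays differed from each other by more than 2-fold. HXT6, a high-affinity transporter whose sequence is nearly that of HXT7, rose from 1725.8 and 1676.6 to 4439.3 and 4253.4. HXT7 rose from 1415.2 and 1522.0 to 3691.8 and 3233.6, but probes for these paralogues can share signal. HXT1, the low-affinity transporter of high glucose, fell from 933.6 and 1000.0 to 557.2 and 719.5. HXT8 was dim, at 9.8 and 22.6 and then at 6.0 and 3.7, and its call remained only without MU 0 h array A among the 4 omissions. The 3 falls were 1 without either 0 h array or 6 h array A. Glyoxylate and gluconeogenesis genes, which glucose represses, gave 5 rises among 14 and no fall (median 0.55). PCK1, the key enzyme of gluconeogenesis, had 28.5 and 33.1 at 0 h and 110.0 and 197.9 at 6 h. ACS1, an acetyl-CoA synthetase, had 123.9 and 158.2 and then 475.1 and 539.9. The 5 rises were 2 without MU 0 h array A, 3 without MU 0 h array B and 2 without MU 6 h array B. In peroxisomal beta-oxidation 4 of 16 were higher and none lower (median 0.06), led by SPS19 (2.13) and CAT2 (1.73), a carnitine acetyltransferase, and the 4 became 2 without MU 6 h array B.

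Of 15 TCA cycle genes 3 were higher and none lower, and 14 had a log2 change above 0 (median 0.33). LSC2, a succinyl-CoA ligase subunit, rose from 146.4 and 154.5 to 423.1 and 429.0. The succinate dehydrogenase subunits SDH4 and SDH2 rose by 0.81 and 0.76, the call of SDH2 being lost without either 0 h array or 6 h array B. Of 35 respiratory chain genes 5 were higher and 2 lower (median 0.06). Minor isoforms were among the rises. COX5B, a form of a cytochrome oxidase subunit used at low oxygen, rose from 8.3 and 13.0 to 87.1 and 70.3. CYC7, an isoform of cytochrome c, rose from 44.6 and 32.3 to 141.1 and 93.7. NDE2, an NADH dehydrogenase, rose by 3.19, a call lost with any one of the 4 arrays left out. The 5 rises were 3 without either 0 h array or without 6 h array A, and the 2 falls were 0 without either 0 h array or 6 h array B. None of the 8 genes of the mitochondrial genome was called (median -0.24). The lowest adjusted p was that of ATP6, at 19.8 and 17.6 and then at 11.7 and 3.2 (adjusted p = 0.177). COB, for cytochrome b, was at 34.3 and 13.1 and then at 13.1 and 6.7 (adjusted p = 0.243), so 1 array of each group had the same signal. Mitochondrial ribosomal proteins gave 3 rises and 3 falls among 65 genes (median 0.02), the largest being MRPS35 (0.73), MRPS28 (-0.63) and MRPL39 (0.57). The 3 rises were 0 and the 3 falls 1 without either 0 h array or 6 h array B.

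Ribosome biogenesis held the longest run of falls. Of 70 genes for rRNA processing and ribosome assembly measured, 52 were lower and none higher, with a median log2 change of -0.85. NOP7, of the large subunit pathway, had 127.1 and 115.6 at 0 h and 50.6 and 40.7 at 6 h. NOP1, the rRNA methyltransferase fibrillarin, had 1449.7 and 1496.7 at 0 h and 690.4 and 557.5 at 6 h. With KRE33 and NOP7, NOP4 was the third member with the largest change (-1.38). The count was 22 without MU 0 h array A, 23 without MU 0 h array B, 33 without MU 6 h array A and 29 without MU 6 h array B, and no omission turned a member upward past the threshold.

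Genes of the RNA polymerases that transcribe rRNA and tRNA gave 11 falls and no rise among 35 (median -0.34). RPA43, a subunit of polymerase I, fell from 289.7 and 290.4 to 146.6 and 121.8. RPC31, of polymerase III, fell from 212.7 and 169.7 to 87.3 and 101.9, and RRN3, an initiation factor of polymerase I, by 0.83. RPA43 was not called without 6 h array B, nor RRN3 without that array or 0 h array A. The 11 became 3 without MU 0 h array A and 5 without MU 0 h array B or without MU 6 h array B. Translation factors gave 22 falls and 1 rise among 32 measured (median -0.51). TIF4631, the scaffold that joins the mRNA cap to the ribosome, fell from 331.4 and 339.6 to 158.1 and 142.1. TIF5, which acts in start codon choice, fell from 260.3 and 261.9 to 142.5 and 113.1. SUP35, the release factor, fell from 504.3 and 534.8 to 290.9 and 229.1, a call lost without either 0 h array or 6 h array B. EAP1, which binds the cap factor and holds back translation, was the rise (0.43), a call lost with any one of the 4 arrays left out. Here the 22 became 13 without MU 0 h array A, 11 without MU 0 h array B and 12 without MU 6 h array B. With the 4 arrays alone the falls were 5.

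By median log2 change, cytosolic ribosomal proteins moved far less than the genes that assemble them. Of 80 measured singly among 137, 10 were lower and none higher, with a median of -0.13. This count is to be read beside the 13.7% of all genes that were lower. The remaining genes of the list had no probe set with a single symbol. RPS22B fell from 848.3 and 916.3 to 317.1 and 303.8. RPL27B fell from 2705.7 and 2846.5 to 1779.4 and 1535.2, and RPS26B by 0.67, a call lost without either 0 h array. The copies of duplicated ribosomal protein genes can cross-hybridise. The 10 became 3 without MU 0 h array A, 6 without MU 0 h array B and 5 without MU 6 h array B. They were 1 with the 4 arrays alone, and 6 on probe sets that their suffix marks as specific.

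Biosynthesis of amino acids leaned downward: 20 of 51 genes were lower and 3 higher (median -0.26). LYS9, of lysine synthesis, fell from 270.8 and 278.9 to 94.4 and 88.4. LEU1, of leucine synthesis, fell from 395.0 and 359.6 to 119.6 and 137.9. The arginine gene ARG4 went the other way, from 530.8 and 516.5 to 846.4 and 1544.3, a call lost without either 0 h array or 6 h array B. GCN4, the activator of these genes, was at 2579.8 and 2862.9 and then at 3084.0 and 3270.7 (adjusted p = 0.066). The 3 rises were 0 without MU 0 h array A or MU 6 h array B and 1 without MU 0 h array B. The 20 falls were 10 without MU 0 h array A and 11 without MU 0 h array B or MU 6 h array B. With the 4 arrays alone the rises were 0 and the falls 8. Of 26 sulfate and methionine genes 7 were lower and 1 higher (median -0.34). Both permeases named here were among the falls. SAM3, which imports S-adenosylmethionine, fell from 186.5 and 180.8 to 65.5 and 43.9. MMP1, which imports S-methylmethionine, fell from 314.7 and 341.5 to 139.5 and 96.4. STR3, a cystathionine beta-lyase, was the rise, by 1.17, a call lost without either 0 h array or 6 h array B. The 7 falls became 3 without either 0 h array and 4 without 6 h array B.

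Among 24 nitrogen catabolite genes, which good nitrogen sources repress through TORC1, 7 were higher and 2 lower (median 0.27). DAL1, of allantoin use, had 11.9 and 5.1 at 0 h and 62.2 and 61.7 at 6 h. UGA1, of GABA use, had 64.2 and 77.2 and then 236.4 and 159.0. PUT1, which oxidises proline, rose by 1.71 but was not called without either 0 h array or 6 h array B. The ammonium permease MEP2 and the general permease GAP1, also on this list, were not called. The 7 became 2 without MU 0 h array A and 3 without MU 0 h array B or MU 6 h array B, and the 2 falls were 0 without either 0 h array. Of 24 iron uptake genes 8 were lower and 1 higher (median -0.38). Besides SIT1 and FRE4 (-1.77), FRE1, a ferric reductase, fell from 397.4 and 351.8 to 129.9 and 132.5, and the count was 6 to 9 with any one of the 4 arrays left out. Purine genes gave 4 rises and 3 falls among 18 (median -0.02), with SHM2 (0.80), MTD1 (0.78) and ADE2 (0.72) among the rises. The 4 rises were 2 without MU 0 h array A and 0 without MU 0 h array B or MU 6 h array A. Thiamine and vitamin B6 genes gave 3 rises and 2 falls among 14 (median 0.28), with THI2 at 1.65, SNZ1 at 1.48 and THI7 at -1.07. The calls of these named 3 were lost without MU 0 h array B or MU 6 h array B, and the 3 rises of the list became 1 without either of these and 5 without MU 6 h array A. Phosphate genes gave 2 rises and 4 falls among 19 (median -0.40). VTC3, for polyphosphate storage, had 696.5 and 712.1 at 0 h and 375.8 and 174.9 at 6 h. PHO4, the regulator of the pathway, changed by -1.07 and PHM8 by 1.09. The 4 falls were 1 without MU 0 h array A, 0 without MU 0 h array B, 8 without MU 6 h array A and 1 without MU 6 h array B.

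In the lists tied to TORC2 and the cell surface, calls went in both directions. In the actin and polarity list 9 of 40 genes were higher and 4 lower (median 0.11). ARC15, of the Arp2/3 complex that branches actin, had 646.9 and 583.1 at 0 h and 1219.2 and 1606.5 at 6 h. VRP1, verprolin, had 220.6 and 264.8 and then 419.7 and 717.6, and CAP1, which caps filaments, changed by 1.02. Each of these 3 was higher on 6 h array B than on array A, and none of their calls remained without that array or without 0 h array B. ACT1, actin, was at 4977.2 and 5211.2 and then at 5242.9 and 5605.0 (adjusted p = 0.337). Among the falls were SPA2, a polarity scaffold, by 0.72 and the GTPase CDC42, from 1871.3 and 1861.8 to 1605.6 and 1499.9. The 9 rises were 2 without either 0 h array and 1 without 6 h array B. The 4 falls were 0 under those 3 omissions and 2 without 6 h array A. With the 4 arrays alone both counts were 0.

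Of 29 cell wall genes 7 were higher and 2 lower (median 0.21). PST1, a wall protein bound to the membrane, rose from 311.1 and 324.9 to 1203.1 and 1267.9. PIR3, another wall protein, rose from 88.5 and 109.1 to 279.3 and 401.3. GSC2, a glucan synthase subunit induced by stress and by calcineurin, rose from 200.5 and 176.2 to 1028.4 and 1607.5. All 7 single-symbol probe sets for GSC2 were higher. UTR2, a wall transglycosylase, and TIR1, a wall mannoprotein, changed by -1.55 and -0.72. The 7 became 4 without MU 0 h array A or MU 6 h array B and 13 without MU 6 h array A. In the cell wall integrity pathway 4 of 21 were higher and 2 lower (median 0.14). ROM1, which activates Rho1, rose from 52.0 and 41.4 to 157.7 and 121.7. WSC3, a wall sensor, changed by -0.94 and MKK2, a kinase, by 0.70. SLT2, the MAP kinase, was at 210.0 and 259.4 and then at 270.0 and 498.9 (adjusted p = 0.106). The 4 became 1 without MU 0 h array B or MU 6 h array B, and the 2 falls 0 without either 0 h array. Calcineurin pathway genes gave 4 rises and 1 fall among 16 (median 0.04). Besides GSC2, CMK2, a calmodulin-dependent kinase, had 139.7 and 130.4 at 0 h and 484.1 and 1117.6 at 6 h. RCN2 had 199.7 and 201.9 and then 668.7 and 1098.3. Their 6 h duplicates lay apart, with array B the higher. These calls of CMK2 and RCN2 were lost without either 0 h array or 6 h array B, and the 4 rises of the list became 1, 1 and 2.

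Sphingolipid genes, whose pathway TORC2 controls, gave 5 rises and 4 falls among 27 (median -0.16). RSB1, which exports long-chain bases, rose from 36.4 and 38.2 to 236.5 and 302.3. The ceramidases YDC1 and YPC1 rose by 0.95 and 0.91, YPC1 being lost with any one of the 4 arrays omitted. The 5 rises were 2 without MU 0 h array A and 3 without MU 0 h array B or MU 6 h array B, and the 4 falls were 1, 1 and 0. Ergosterol genes gave 3 rises and 6 falls among 24 (median -0.15), with ERG24 at -0.78, the regulator UPC2 at 0.78 and MVD1 at -0.54. The 6 falls became 2 without MU 0 h array A, 0 without MU 0 h array B and 3 without either 6 h array, and the 3 rises 1, 0, 3 and 0 without 0 h A, 0 h B, 6 h A and 6 h B. The list of fatty acid synthesis and desaturation held 1 rise (FAA1, 0.70) and 1 fall (FAA3, -0.82) among 12 genes (median -0.08). Neither call held without either 0 h array. Glycerol and osmotic genes gave 4 rises and 1 fall among 18 (median -0.12), the fall being lost without either MU 0 h array, without MU 6 h array A, with the 4 arrays alone and with the replicate block. GPD1, for glycerol synthesis, rose from 1057.1 and 914.3 to 1826.7 and 2052.6. GUT2, for glycerol use, rose from 76.6 and 56.4 to 271.9 and 236.1.

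In the cell cycle lists nearly all calls were falls, to be read beside the 13.7% of all genes that were lower. Of 24 cyclins and regulators 5 were lower and none higher (median -0.21). CLB2, a mitotic cyclin, had 148.7 and 139.4 at 0 h and 83.6 and 54.6 at 6 h. CLB6, an S phase cyclin, and SWI5, a transcription factor, changed by -0.94 and -0.74. The 5 were 0, 1 and 0 without 0 h A, 0 h B and 6 h B. None of 4 histone genes measured singly was called (median -0.39). HTB1, for histone H2B, was at 1886.5 and 1812.2 and then at 1671.1 and 1093.1 (adjusted p = 0.117). HHO1, the linker histone, was at 341.1 and 331.8 and then at 301.7 and 246.9 (adjusted p = 0.073). All 4 histone genes were called lower without MU 6 h array A. DNA replication genes gave 8 falls and 1 rise among 42 (median -0.25). MCM3, of the replicative helicase, fell from 208.6 and 205.0 to 116.2 and 116.1, a call lost without either 0 h array. RFC1, of the clamp loader, and ORC5, of the origin recognition complex, fell by 0.79 and 0.77. The 8 became 4 without either 0 h array, 5 without 6 h array B and 1 with the 4 arrays alone.

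Mating-type markers were read as a description, each against its own probe set, so their signals do not measure a share of cell types. The a-specific genes MFA1, STE2 and BAR1 had signals of 1941.8 and 1692.7, 486.6 and 515.7, and 533.2 and 501.1 at 0 h. The alpha-specific STE3 stood at 11.4 and 11.2 and MF(ALPHA)1 at 25.2 and 38.5. Of 7 a-specific genes 3 were lower at 6 h and none higher (median -0.70), and 5 were lower without MU 6 h array A. At 6 h MFA1 had 1059.1 and 1040.7, STE2 had 243.7 and 153.6, and BAR1 had 290.8 and 226.0. Over the 7 a-specific genes the log2 change ran from -1.38 to 2.01, and 2 of the 7 were above 0. Of 4 alpha-specific genes 1 was higher, STE3, at 39.8 and 56.6 (log2 change 2.05 ± 0.22, median of the list 0.51). Of 10 haploid-specific genes 2 were higher and 2 lower (median -0.03), with RME1 at 1.48, STE4 at -0.94 and FAR1 at -0.62. Both counts were 1 without either MU 0 h array or without MU 6 h array B, and the call of FAR1 was lost under these 3 omissions. In the meiosis and sporulation list, where 8 of 27 genes had no measurable signal on some array of the 4, 4 were higher and 2 lower (median 0.41). RIM4, a regulator of meiotic translation, had 8.8 and 8.3 at 0 h and 110.3 and 73.6 at 6 h. IME1, the inducer of meiosis, had 35.7 and 32.0 and then 106.3 and 115.1. SPS100, a spore wall gene, had 58.7 and 50.7 and then 198.9 and 396.0, a call lost with any one of the 4 arrays left out. The 4 became 2 without MU 0 h array B or either 6 h array, and a call in this list does not show that any cell entered meiosis.

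The 6 h duplicates stood apart for some of the strongest rises. Among the 1003 rises, 35 probe sets had a signal on MU 6 h array B at least 2 times that on array A, and 6 the reverse. JLP1, JEN1, HXT5, CPP3, RTA1, BAG7 and CMK2 were among the 35. In WT at 6 h, for 20 of these 35 array A was at least 2 times array B and for none was it the reverse, whereas among the other 968 rises this held for 28 and 5. CPP3, for example, had 1061.6 and 2570.8 on the MU arrays A and B and 1368.4 and 377.9 on the WT arrays A and B. What the duplicates differed in was not tested, and for these genes the size of the rise in MU depends on which culture is read.

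To see where 6 h went beyond 2 h at the same temperature, MU 6 h was set against MU 2 h. Here 27 probe sets (0.291%) were higher at 6 h and 31 (0.334%) lower. This comparison shares its 6 h arrays with that against 0 h. Leading rises were FMP33, HSP26, FMP16, MSC1, GAT2 and COX1. HSP26 stood at 81.0 and 58.9 at 0 h, 296.0 and 266.0 at 2 h and 839.3 and 943.4 at 6 h, 1.67 above 2 h on the log2 scale (adjusted p = 0.022). MSC1, also on the Msn2 and Msn4 list, had 244.9 and 196.3 at 2 h and 583.4 and 524.0 at 6 h. GAT2, of the GATA factor family, was near its 0 h signals of 29.3 and 35.6 at 2 h, with 35.0 and 32.0, and reached 83.8 and 81.8 at 6 h. COX1, the mitochondrial gene for a core subunit of cytochrome oxidase, was low at 2 h alone, with 1241.9 and 1260.1 at 0 h, 511.2 and 519.2 at 2 h and 1096.8 and 1288.3 at 6 h. On 2 further probe sets for COX1 the log2 change from 0 h to 6 h was -1.09 (adjusted p = 0.092) and -0.71 (adjusted p = 0.560), beside -0.08 here.

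The leading falls after 2 h were DIP5, FCY22, ATO3, FCY21, SAM2 and YDR444W, of which 4 are transporters or putative transporters of the plasma membrane. DIP5, the permease for acidic amino acids, had 1257.4 and 1186.9 at 0 h, 1426.2 and 1558.8 at 2 h and 537.2 and 598.6 at 6 h, 1.39 below 2 h on the log2 scale (adjusted p = 0.0012). SAM2, an S-adenosylmethionine synthetase, had 652.6 and 708.3 at 2 h and 378.3 and 348.9 at 6 h. ATO3 went in steps, with 566.1 and 511.2 at 2 h. FCY21 and FCY22, putative purine and cytosine permeases, fell by 0.95 and 1.16 from 2 h. The counts of this comparison moved widely. They were 0 and 1 without MU 2 h array A, 4 and 8 without MU 2 h array B, 121 and 136 without MU 6 h array A, 14 and 23 without MU 6 h array B, and 0 and 0 with the 6 MU arrays or the 4 arrays alone. Leaving out arrays that are not compared moved them as well: 10 and 4 without MU 0 h array A, 11 and 4 without array B, and 7 and 3 without either WT 0 h array. With the replicate letter as a block they were 11 and 9.

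**Figure D4:**
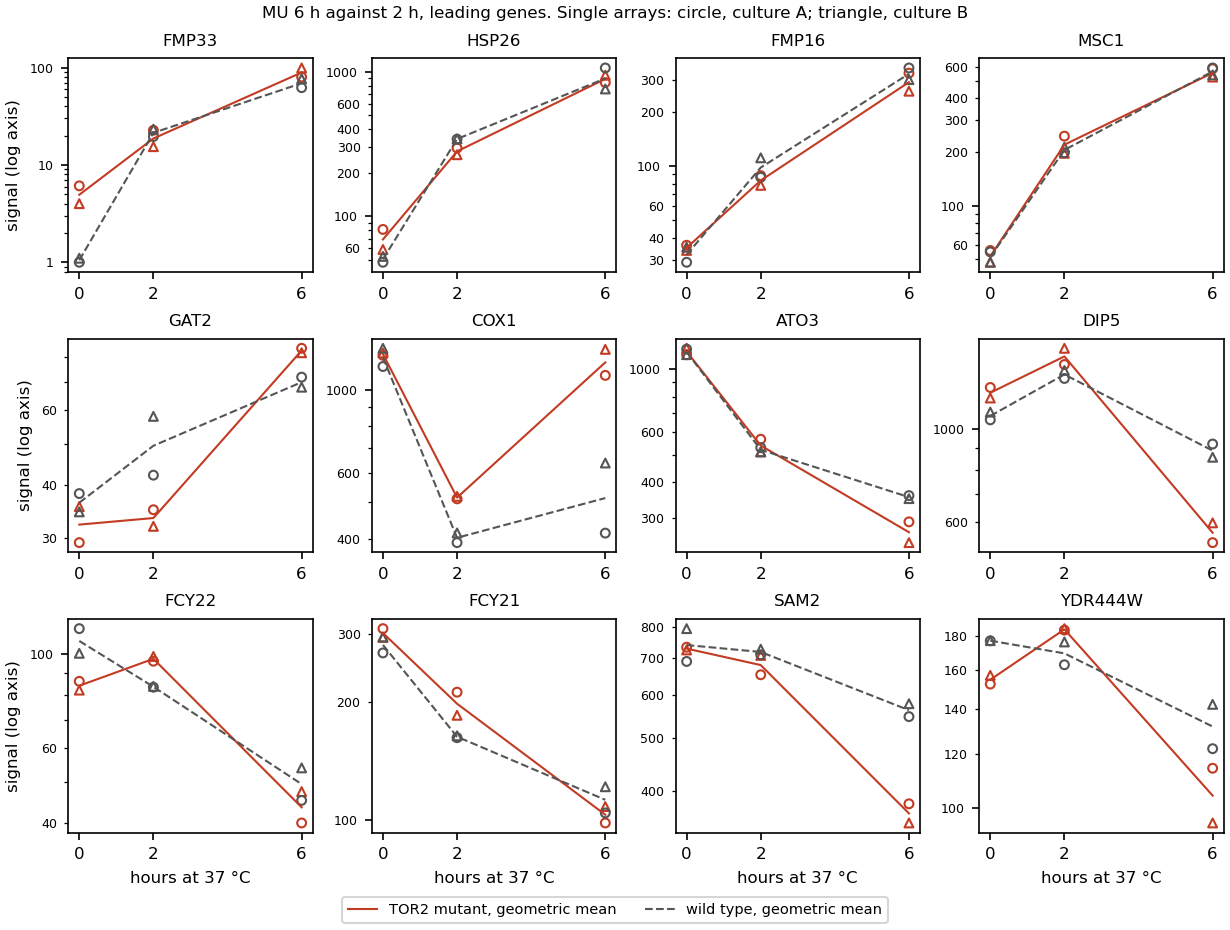
Signals (log y axis) against hours at 37 °C for the 6 leading rises and 6 leading falls of MU 6 h against 2 h, with each array as a point and lines through geometric means (red, TOR2 mutant, solid; grey, wild type, dashed). COX1 in the mutant dips to an arithmetic mean of 515 at 2 h and is at 1193 at 6 h, while wild type is at 526 at 6 h.

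The same shift in WT gave 912 higher (9.83%) and 886 lower (9.55%) probe sets at 6 h. The MU and WT arrays are separate cultures, but the calls in both strains came from 1 fit with a shared estimate of the spread. The overlap of the 2 lists is therefore not one of independent tests. Of the 1003 rises in MU, 686 were also rises in WT, which is 68.4% of the MU list and 75.2% of the WT list. Of the 1054 falls 587 were shared, 55.7% of the MU list and 66.3% of the WT list. Only 1 rise and 1 fall were called the opposite way in WT. Across all probe sets the 2 changes correlated at r = 0.681, and at 0.893 over the 4637 brighter ones, a description in which probe sets are not independent. HSP12 in WT, for example, went from 327.2 and 290.3 to 4514.3 and 5369.6. TDH1 went from 261.6 and 248.1 to 3268.5 and 3076.0, and ATO3 from 1174.5 and 1122.6 to 358.8 and 350.1.

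**Figure D5:**
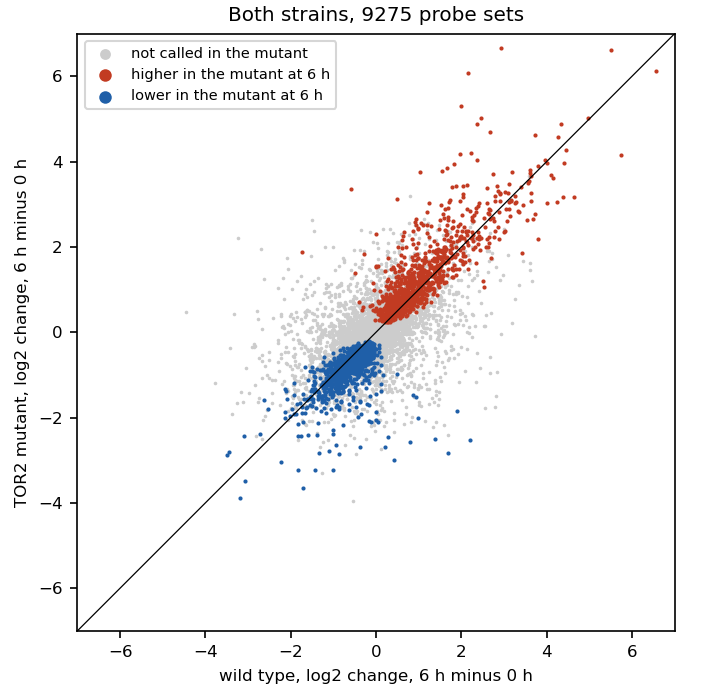
Log2 change from 0 h to 6 h in the TOR2 mutant (y axis) against that in wild type (x axis), 1 point for each of 9275 probe sets, with the line of equal change. Most of the 1003 rises (red) and 1054 falls (blue) of the mutant lie along the line.

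Whether the change in MU differed from that in WT was tested as the difference of the 2 changes. No probe set passed limma's test at an adjusted p under 0.05 in either direction (0.0% higher and 0.0% lower), and none did at 0.10. At an unadjusted p under 0.05 there were 466, which is 5.02% of those tested, and the lowest adjusted p was 0.159. Without the variance trend 1 was higher and 2 lower, without WT 6 h array B 1 was higher, without MU 6 h array B 3 were lower, and 1 was lower without either MU 2 h array. With 2 cultures in each group an absent call does not show that the strains changed alike. Among the named genes DIP5 had the lowest adjusted p, 0.206, with a MU change 0.82 below that of WT, whose signals were 1052.9 and 1098.8 at 0 h and 922.3 and 857.8 at 6 h. COX1 in WT had 1158.7 and 1296.8 at 0 h and 413.6 and 638.0 at 6 h, and its change in MU was 1.20 above that in WT (adjusted p = 0.632). SAM2 and RPL27B had that same adjusted p of 0.632, with differences of -0.59 and -0.54. By list, the median difference of MU from WT was 0.09 for Msn2/Msn4 stress genes, 0.10 for trehalose and -0.10 for ribosome biogenesis, lists of 30, 7 and 70 genes. The highest medians of the 45 lists were 0.32 for mitochondrially encoded proteins and 0.32 for the glyoxylate cycle and gluconeogenesis, lists of 8 and 14 genes. The lowest were -0.33 for histones and -0.29 for purine biosynthesis, lists of 4 and 18 genes.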

How the data were processed

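The values are Affymetrix intensities, 1 linear signal per probe set and array, which the authors computed from scanned images with Affymetrix software and their own Matlab scripts and then deposited. The 12 arrays share the lowest and the highest intensity and nearly the same median, so a step that put them on a common distribution preceded deposit. Its kind is not stated in any source used, and it limits what can be said of a change in total RNA. All 12 columns of per-sample values were mapped to samples by their accession, and 0 columns were left unused.

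The 60 control probe sets were removed, log2 signals were quantile-normalised, and limma 3.58.1 (R 4.3.3) fitted 6 groups of strain and time over the 12 arrays (6 residual degrees of freedom), with a variance trend. Contrasts were two-sided, and p-values were adjusted by Benjamini-Hochberg over 9275 probe sets, with calls at an adjusted p under 0.05. Every adjusted p in the text is from this fit. The p-values measure only the spread between duplicate cultures, and an exact permutation test of 2 arrays against 2 cannot reach 0.05. On simulated signals 50 probe sets were changed by each fold, all drawn from those above the median signal at 0 h. The 6 h against 0 h contrast recovered 41 at a log2 change of 1, 39 at -1, 47 at 2 and 49 at -2, with 3 false calls. On the same signals the 6 h against 2 h contrast recovered 175 of all 200, with 13 false calls. The difference between the strains' changes recovered 139 of the 200, with 12 false calls. Recovery among dimmer probe sets was not measured.

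Gene names came from the array's platform annotation (6504 probe sets with 1 symbol, 328 with several and 2443 with none). A list used 1 probe set per gene, an identifier with no letter before the ending first and then the brightest. Genes were named by rule: TOR2, the 12 largest rises and falls with all 4 signals above the lowest value and the higher group above the array median, the 3 largest changes in each list (or the 2 lowest adjusted p), the 6 largest rises and falls of 6 h against 2 h, and the largest changes from or to the lowest value. Other genes named were chosen after their values were seen. The lists and tests were chosen with earlier results of these data known. Alternatives were other normalisations, an offset, filters, other sets of arrays, the replicate letter as a block, and a rank difference method rewritten from the description in the methods. Promoter and protein sequences were not used here, so a planned count of promoter motifs was not run.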

Additional observations from a re-analysis of the deposited data

How the results depend on the processing

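The 6 h against 0 h counts of 1003 higher and 1054 lower stayed within 1.5 times of these under no further normalisation, median scaling, an offset of 16, the dimmest 25% left out, no variance trend and the replicate block (971 and 1031). They were 325 and 252 with the 4 arrays alone, and 671 were lower with the 6 MU arrays. Leaving out 1 of the 12 arrays gave 590 to 1001 higher and 400 to 1067 lower. The rank difference method, at an estimated false discovery rate of 10% against the 0.05 of limma, selected 1029 and 885, of which 817 and 673 were also called by limma (81.5% and 63.9% of the limma lists, 79.4% and 76.0% of its own). On the simulated signals it recovered 48 and 50 of 50 rises at log2 changes of 1 and 2, beside 28 false calls. Of 50 falls each it recovered 37 at -1 and 50 at -2, beside 23 false calls. Its false share there was above the estimated 10% in both directions. Those signals held 200 changed probe sets among 9275, far fewer than limma called in the data. The false share in the data was not measured.

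For 6 h against 2 h (27 higher, 31 lower) an offset of 16 gave 48 higher, the dimmest 25% left out 131 and 117, no variance trend 11 and 13, the replicate block 11 and 9, and an adjusted p under 0.10 178 and 187. With the 6 MU arrays or the 4 arrays alone both counts were 0. Omissions gave 0 to 121 higher and 1 to 136 lower. For the strain difference (0 and 0) no variance trend gave 1 and 2, the replicate block 0 and 0, and omissions 0 to 1 and 0 to 3.

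Of the 149 called genes among the 154 named by rule, 62 were called under every setting and 140 by the rank difference method, and 0 changed sign. Genes named outside the rule were not followed in this way. COX1, not called, changed by -0.08, and by 0.039 without MU 6 h array A (-0.19 without array B). The block lost 6 calls (ARG4, HXT8, RPT2, SPS100, TOR2, VTC3). Whether the letters A and B pair the cultures is not stated. Over all probe sets the A minus B differences of MU 0 h and MU 6 h correlated at r = 0.119, and those of MU 2 h at -0.033 and -0.027 with them. Such a correlation can miss pairing that touches few genes. Keeping the 23 yeast control probe sets, and omitting arrays of groups not compared, were chosen after seeing the data. The first gave 1001 and 1046. The cause of these changes was not tested.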

Other observations

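Probe sets for tRNAs and snoRNAs were called lower more often than higher after 6 h in the TOR2 mutant. Of 92 tRNA probe sets 13 (14.13%) were lower and 0 higher, with a median log2 change of -0.96. Of 59 snoRNA probe sets, for guides of rRNA modification, 13 (22.03%) were lower and 1 higher (median -0.53). Among 6319 probe sets for protein-coding genes 824 (13.04%) were lower and 873 higher (median -0.03). The share of tRNA probe sets called lower was thus close to that of protein-coding genes, and the classes differed in rises and in the median. None of 6 rRNA probe sets was called, nor any of 7 for miscellaneous RNA or the 1 for RNase P RNA. In 2 other small classes, 1 of 4 snRNA and 2 of 2 telomerase RNA probe sets were lower. Probe sets for tRNAs can be shared by near-identical genes, so their calls may not be independent.

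Among 315 genes with more than 1 probe set, 3 had probe sets called in opposite directions: UBP9, YGR161W-C and YHB1. Of the 2771 probe sets that name no single gene, 127 were higher and 199 lower.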
